A study of Homo sapiens and Mus musculus with 27 samples.

Results

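The 9 genes described here are BRCA1, BRCA2, BARD1, PALB2, RAD51AP1, XRCC2, FANCD2, FANCI and BLM, taken by name as homologous recombination and Fanconi anaemia genes, with no threshold on a measured value. They were found by symbol among 78932 features of each human count table and 25239 of the mouse table, and all 9, or their mouse orthologs, passed the filter on low counts in each table. Poly(A) RNA was sequenced in 27 libraries, 3 for each of 9 groups, from 2 human breast cancer lines in culture and from mouse 4T1 mammary tumours. Libraries labelled HCC1937 were vehicle, 10 µM TM alone, or 10 µM AMD3100 alone. Libraries labelled MDA-MB-231 were vehicle or had 10 nM bortezomib combined with either TM or AMD3100, each at 10 µM. Tumour groups were vehicle, bortezomib at 1 mg/kg every 4 days with TM at 0.05 mg/ml in the drinking water, and the same bortezomib with AMD3100 at 5 mg/kg every 2 days. Bortezomib is a proteasome inhibitor and AMD3100 (plerixafor) an antagonist of the chemokine receptor CXCR4; the labels do not spell out TM and give no treatment time, mouse strain or age. Since bortezomib was never given by itself, its part and that of its partner cannot be told apart. The titles call the replicates biological but name no separate cultures or mice, so p-values measure the spread between these samples.

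Homologous recombination repairs a broken chromosome by copying an intact sister, and so acts mainly in S and G2 phase. BRCA1, held in a heterodimer with BARD1, helps resect the ends and recruits PALB2, which brings in BRCA2, and BRCA2 prepares the exposed strand to invade the sister. RAD51AP1 and XRCC2 assist that strand invasion, FANCD2 and FANCI form the heterodimer that is ubiquitinated at interstrand crosslinks, and BLM is a helicase that dissolves the joined intermediates. HCC1937 is known as a line with a truncating BRCA1 mutation; a gene-level count does not separate a mutant transcript from an intact one.

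The labels were checked against marker genes. In the libraries labelled HCC1937, 4 of 7 epithelial markers were near 0 (EPCAM 0 to 19 counts, KRT19 0 to 26, KRT5 0 to 4 and KRT14 0 to 19), CDH1 had 16 to 88 counts, and KRT8 had 37041 to 75710. HCC1937 is known to express these keratins, EPCAM and CDH1. These values go against the cell line label, and the libraries are therefore called HCC1937-labelled; whether they carry a BRCA1 mutation was not tested. In MDA-MB-231 libraries VIM was high (32986 to 53276 counts), CDH1 had 0 to 6 counts, and CDKN2A, deleted in that line, was at 0 in all 9. Other markers of both lists went the other way there. The epithelial KRT8 had 12594 to 21008 counts, KRT18 6082 to 11897 and KRT19 3180 to 7685, and the mesenchymal SNAI2 had 15 to 175. EPCAM (37 to 143) and KRT14 (0 to 156) were low. VIM was also high in the HCC1937-labelled libraries (11086 to 27717 counts). In 4T1 tumours the epithelial Krt8 had 23155 to 53172 counts and Krt18 15532 to 34491. Cdh1 had 1811 to 4945, Krt19 829 to 2918 and Epcam 518 to 2305. Krt14 (154 to 935) and Krt5 (13 to 386) were low. The mesenchymal Fn1 (370354 to 654535) and Vim (97561 to 220507) were above all of these. Zeb1 (309 to 1034) and Snai2 (17 to 145), also mesenchymal markers, were low. The first 4T1 vehicle tumour is labelled human and MDA-MB-231 in 2 fields, but its title, library name and mouse count column name 4T1, and it was kept there. HCC1937-labelled AMD3100 replicate 1 stood apart: 19.9% of its counts were mitochondrial against 10.5% to 11.6% in the other 8, and 20639 genes had a count against at least 29335. The tests of the 9 genes in that table are given with and without it. Library totals ran from 35981504 to 50735374 counts.

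Promoter sequences of 8 of the 9 genes matched the RefSeq table (GRCh38.p14), and 4 are shown because their genes moved in opposite directions in MDA-MB-231: BRCA1, PALB2 and FANCD2 fell there and RAD51AP1 rose. Each line gives the 250 bases before the transcription start, 5′ to 3′ on the gene's strand, with capitals marking a CCAAT box (CCAAT, or ATTGG where it lies on the other strand). For BRCA1 the start nearer the coding region is shown, of 2 in the table.
BRCA1 (chr17:43125365-43125614, minus strand): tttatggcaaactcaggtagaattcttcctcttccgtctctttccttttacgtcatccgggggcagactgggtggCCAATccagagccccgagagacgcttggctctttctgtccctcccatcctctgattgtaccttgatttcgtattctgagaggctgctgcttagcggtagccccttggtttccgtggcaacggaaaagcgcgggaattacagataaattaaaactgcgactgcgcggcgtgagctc
PALB2 (chr16:23641311-23641560, minus strand): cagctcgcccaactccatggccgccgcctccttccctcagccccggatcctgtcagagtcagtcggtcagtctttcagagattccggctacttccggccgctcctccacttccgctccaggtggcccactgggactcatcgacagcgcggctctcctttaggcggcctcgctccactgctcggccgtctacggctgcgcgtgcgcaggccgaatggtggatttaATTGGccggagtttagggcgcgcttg
RAD51AP1 (chr12:4538640-4538889, plus strand): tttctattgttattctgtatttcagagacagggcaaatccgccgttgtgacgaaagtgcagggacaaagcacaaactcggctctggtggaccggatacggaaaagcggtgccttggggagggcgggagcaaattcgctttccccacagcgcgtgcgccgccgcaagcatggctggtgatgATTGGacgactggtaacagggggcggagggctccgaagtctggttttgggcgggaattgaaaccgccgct
FANCD2 (chr3:10026187-10026436, plus strand): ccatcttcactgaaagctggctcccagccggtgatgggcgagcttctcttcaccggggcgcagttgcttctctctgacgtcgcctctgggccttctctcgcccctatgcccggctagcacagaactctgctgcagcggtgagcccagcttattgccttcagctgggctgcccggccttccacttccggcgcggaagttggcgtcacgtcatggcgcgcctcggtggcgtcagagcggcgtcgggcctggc
In windows of 250 bases before to 50 after the start, searched on both strands, a CCAAT box stood in 4 of the 8 (BRCA1, PALB2, RAD51AP1 and BLM) and in 34.6% of all 35116 promoters. The CHR letters TTTGAA or TTTAAA, named after the element of late cell cycle promoters, were in 1 of the 8, BLM, against 24% of all. The E2F letters TTTCGCGC or TTTGGCGC were in 0 of the 8 and in 1.15% of all. These letters did not separate the genes that fell from the gene that rose in MDA-MB-231. BRCA1, PALB2 and RAD51AP1 held a CCAAT box, and FANCD2 held none of the motifs. BRCA2, which also fell there with bortezomib and TM, held none either. The E2F letters, in 1.15% of all promoters, were too rare to separate so few genes.

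Untreated levels were compared first, per kilobase of gene length because the deposited lengths run from 2557 bases (RAD51AP1) to 17853 (FANCI). The deposited length need not be that of the expressed transcript, and the order of the genes depends on it. Levels are CPM, counts scaled to library size within each table, so they are compared within a line and not between lines. In HCC1937-labelled vehicle libraries RAD51AP1 was highest at 15.9 ± 1.54 CPM per kilobase (SD, n = 3), then FANCD2 at 5.09 ± 0.157, XRCC2 at 3.96 ± 0.275, FANCI at 3.03 ± 0.00661 and BRCA1 at 2.94 ± 0.227. BLM followed at 2.58 ± 0.251, PALB2 at 1.44 ± 0.0491, BARD1 at 1.28 ± 0.187 and BRCA2 at 0.826 ± 0.0505. The intervals of FANCI, BRCA1 and BLM touched their neighbours', as did those of PALB2 and BARD1. In MDA-MB-231 vehicle libraries the same 2 genes led, with RAD51AP1 at 4.84 ± 1.35 CPM per kilobase, FANCD2 at 3.33 ± 0.418 and FANCI at 2.47 ± 0.518. XRCC2 (1.43 ± 0.205), BLM (1.06 ± 0.156), BARD1 (0.975 ± 0.238), BRCA1 (0.746 ± 0.217), PALB2 (0.539 ± 0.174) and BRCA2 (0.375 ± 0.0478) followed. There each gene's interval of 1 SD touched the next one's, except FANCI above XRCC2 and XRCC2 above BLM. Without division by length the order differed. FANCD2 (60.4 CPM), FANCI (54.2), BRCA1 (41.6) and RAD51AP1 (40.7) led in HCC1937-labelled vehicle libraries. In MDA-MB-231 vehicle libraries FANCI (44.1 CPM), FANCD2 (39.5) and RAD51AP1 (12.4) led.

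Between the untreated lines, 6 of the 9 genes were called higher in the HCC1937-labelled libraries and none lower, where a call is an adjusted p under 0.05 (edgeR quasi-likelihood test, Benjamini-Hochberg over all genes). Of all 18505 genes tested, 79.2% were called, 42.2% as higher and 37% as lower, so the count of 6 is read against a high background. BRCA1 showed the largest difference of the 9: with the 6 vehicle libraries scaled together it was at 37.7, 40 and 34.2 CPM against 14, 9.95 and 18.4, a log2 difference of 1.4 ± 0.19 (SE; 2.64-fold, adjusted p = 1.55e-05). On that joint scale no HCC1937-labelled library overlapped an MDA-MB-231 one for BRCA1 or for the other 5 genes called, while BARD1, FANCD2 and FANCI overlapped. The share of all genes without overlap between the lines was not counted, so this separation is not read as a further result. RAD51AP1 (1.14 ± 0.19), XRCC2 (0.89 ± 0.14), PALB2 (0.84 ± 0.22), BLM (0.70 ± 0.15) and BRCA2 (0.56 ± 0.16) were also higher on the log2 scale. BARD1 (-0.19 ± 0.20), FANCD2 (0.04 ± 0.11) and FANCI (-0.28 ± 0.14) did not pass the test, so the partners BRCA1 and BARD1 differed between lines to unequal extents. Without MDA-MB-231 vehicle replicate 2, BARD1 (-0.41, adjusted p = 0.0132) and FANCI (-0.48, adjusted p = 2.14e-06) were called lower. FANCI was also called lower with a trend of gene length removed from each library (-0.56, adjusted p = 0.000594). Of 7 end resection genes 4 were higher and 0 lower, led by the nuclease gene MRE11 (2.33 ± 0.16). Of 16 S phase genes, 11 were lower there and 0 higher (TYMS -2.81, MCM2 -2.65 and RRM2 -2.12 on the log2 scale). Line, culture and library batch cannot be told apart in this comparison.

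**Figure D1:**
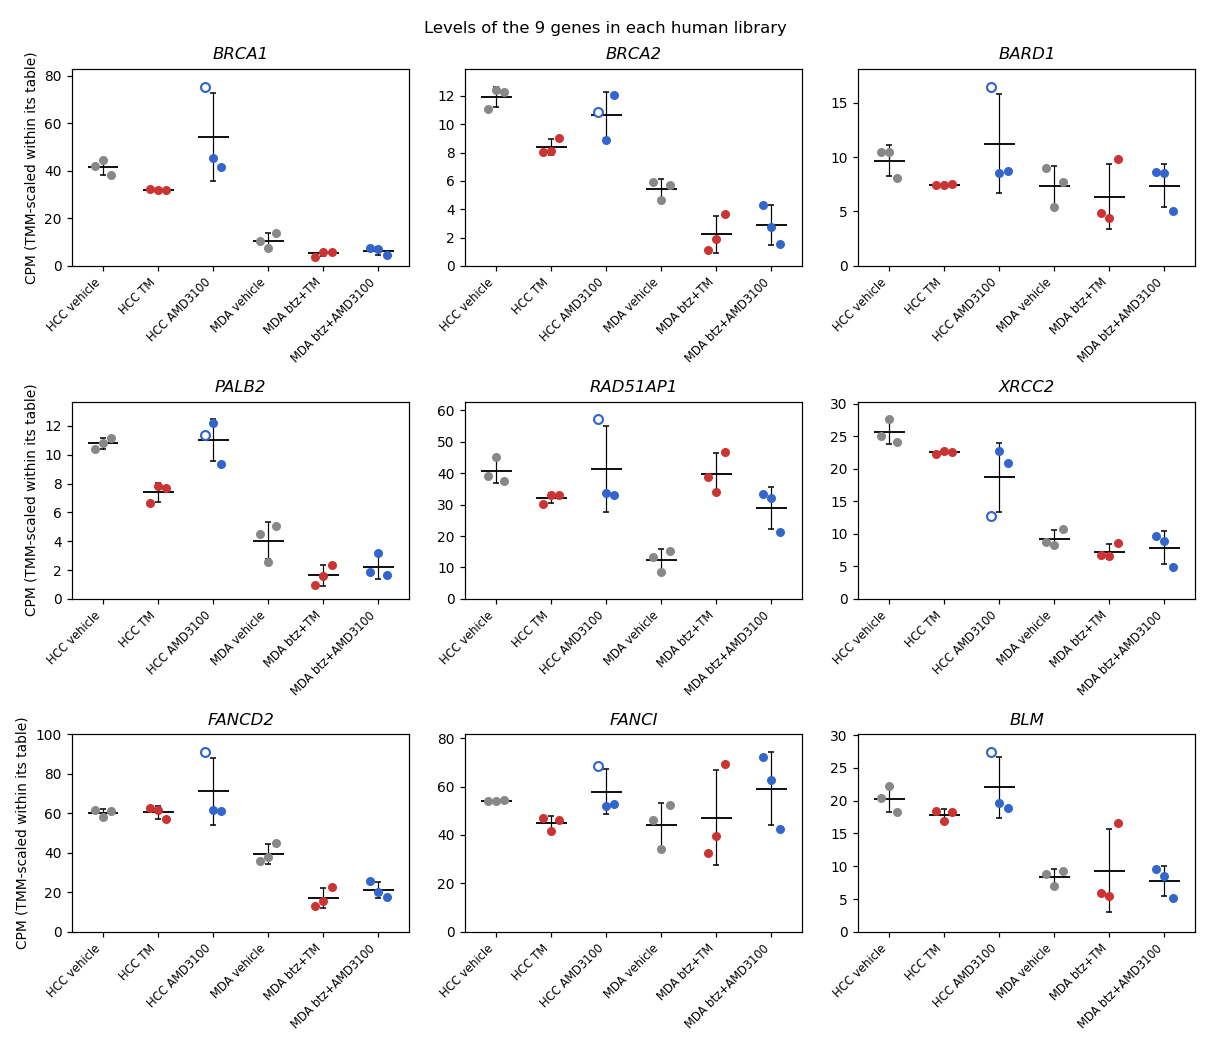
Level of each of the 9 genes in every human library. Vertical axes give CPM scaled within each table, from 0, so that heights compare within a line only; horizontal positions give the 6 groups (HCC, HCC1937-labelled; MDA, MDA-MB-231; btz, bortezomib), points single libraries, and bars mean ± SD of 3. The open circle is HCC1937-labelled AMD3100 replicate 1, at 75.4 CPM for BRCA1; RAD51AP1 is the only gene whose MDA-MB-231 treated libraries all lie above vehicle.

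In HCC1937-labelled cells, 7 of the 9 genes had lower levels in every TM library than in every vehicle library, and 6 of them passed the test once an outlying library of another group was left out. BRCA1 was at 42.1, 44.6 and 38.2 CPM in vehicle and at 32.5, 31.9 and 31.8 CPM with TM. Every TM library was below every vehicle library, and the TM replicates lay within 1 CPM of each other. BARD1, its obligate partner, was at 10.5, 10.5 and 8.05 CPM in vehicle and 7.44, 7.46 and 7.53 CPM with TM. PALB2, the bridge from BRCA1 to BRCA2, went from 10.4, 10.8 and 11.1 CPM to 6.64, 7.84 and 7.66, and BRCA2 from 11.1, 12.4 and 12.3 CPM to 8.05, 8.13 and 9.05. For these 3 genes too the groups did not overlap. RAD51AP1 was at 39.2, 45.1 and 37.6 CPM in vehicle and 30.2, 33.1 and 33 with TM. FANCD2 was at 61.7, 58.3 and 61.2 CPM against 63, 61.8 and 56.9, while its partner FANCI read 54.1, 54.1 and 54.3 CPM against 46.8, 41.8 and 46.3. XRCC2 (25, 27.6 and 24.2 against 22.2, 22.8 and 22.6 CPM) was also lower throughout, while FANCD2 and BLM overlapped. Every TM library lay below every vehicle library in 26.4% of the 19461 genes tested.

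Whether these differences passed the test depended on 1 library that belongs to neither group. In the fit over all 9 HCC1937-labelled libraries, 0 of the 9 genes were called by edgeR (2 at an unadjusted p under 0.05, and 2 called by DESeq2), where 7.07% of all genes were called, 2.96% as higher and 4.11% as lower. With AMD3100 replicate 1 left out, 6 of the 9 were called lower and none higher, where 40.8% of 20398 genes were called, 19.4% as higher and 21.4% as lower. In that fit PALB2 fell by 0.55 ± 0.12 on the log2 scale (SE, adjusted p = 0.000474), BRCA2 by 0.50 ± 0.12 (adjusted p = 0.0011), BRCA1 by 0.38 ± 0.07 (adjusted p = 4.12e-05), BARD1 by 0.37 ± 0.12 (adjusted p = 0.0154), RAD51AP1 by 0.34 ± 0.07 (adjusted p = 0.000294) and FANCI by 0.27 ± 0.06 (adjusted p = 0.000481). XRCC2 (-0.18 ± 0.08, adjusted p = 0.0568) and BLM (-0.18 ± 0.09, adjusted p = 0.0962) did not pass, nor did FANCD2 (adjusted p = 0.968). The log2 values themselves were almost the same in both fits, at -0.38 ± 0.21 for BRCA1 with the library kept; the standard error is what differed. Leaving out a further library gave 5 to 8 called genes of the 9, with 8 when vehicle replicate 3 was the one removed and 5 when vehicle replicate 1 or 2 was.

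Proliferation genes moved in the same comparison. Without AMD3100 replicate 1, 10 of 16 S phase genes fell and 1 rose, and 11 of 12 mitosis genes fell and 0 rose; RRM2, a subunit of ribonucleotide reductase, fell by 1.06 ± 0.05 on the log2 scale and the proliferation antigen MKI67 by 0.70 ± 0.04. With that library kept, 4 S phase and 3 mitosis genes fell and 0 of either rose. The summed level of the S phase genes was 2489 to 2548 CPM in vehicle and 2000 to 2017 CPM with TM, and that of the mitosis genes 1687 to 1719 and 1278 to 1308 CPM. The median log2 change of the 9 genes, -0.34, stood beside -0.24 for the S phase genes, -0.36 for the mitosis genes and 0.00 over all genes tested. Fibroblast markers, 3 of 4 of them tested, summed to 141 to 146 CPM in vehicle and 219 to 226 CPM with TM, nearly all from COL1A1, with COL3A1 (0 to 8 counts) and DCN (0 to 24) at or near 0. The part of these genes in the change of the recombination genes was not tested.

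With AMD3100 alone, none of the 9 genes passed the test in HCC1937-labelled cells with all libraries kept, and RAD51AP1 fell without replicate 1. BRCA1 was at 75.4, 45.4 and 41.4 CPM, FANCD2 at 90.9, 61.9 and 61 CPM, BARD1 at 16.5, 8.5 and 8.68 CPM and XRCC2 at 12.7, 22.6 and 20.8 CPM. Replicate 1 was the highest of the 3 for BRCA1, FANCD2 and BARD1, and also for RAD51AP1 (57.1 CPM), FANCI (68.5) and BLM (27.4). It was the lowest for XRCC2, the only gene of the 9 with every AMD3100 library below vehicle (7.17% of all genes). In the fit of all 9 libraries 0 of the 9 genes and 0% of all genes were called against vehicle by edgeR; at an unadjusted p under 0.05 there was 1 of the 9 and 951 of 19461, and DESeq2 called 39 of all genes and 0 of the 9. Without replicate 1, 8.14% of all genes were called, 5.39% as higher and 2.76% as lower, and of the 9 only RAD51AP1 was, with a fall of 0.27 ± 0.08 on the log2 scale (adjusted p = 0.0375). That call rests on 2 AMD3100 libraries, 33.6 and 33.1 CPM, and was lost when either of them or vehicle replicate 2 was also removed (0 of the 9 called). For RAD51AP1 the replicate left out, at 57.1 CPM, lay above every vehicle library. BRCA1 differed from vehicle by 0.08 ± 0.07 in that fit.

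Set directly against TM, the AMD3100 libraries were higher for PALB2 in both fits, though its call with all libraries was fragile. PALB2 read 11.4, 12.2 and 9.38 CPM with AMD3100 against 6.64, 7.84 and 7.66 with TM, a log2 difference of 0.57 ± 0.15 (adjusted p = 0.0454) with all libraries, where 8.22% of all genes were called, 4.61% as higher and 3.6% as lower. That call was lost, with an adjusted p of 0.0898 to 0.186, without any 1 of the vehicle or TM libraries or AMD3100 replicate 2, and BRCA1 (adjusted p = 0.0593) was called without AMD3100 replicate 3 (0.0319). Without replicate 1 it was 0.57 ± 0.13 (adjusted p = 0.00104), and BRCA1 (0.46 ± 0.07, adjusted p = 1.46e-05), BRCA2 (0.34 ± 0.13, adjusted p = 0.0494) and FANCI (0.24 ± 0.07, adjusted p = 0.0044) were called higher too, where 36.5% of all genes were called, 19.7% as higher and 16.8% as lower. These comparisons share the TM libraries with the one against vehicle. BRCA2 was close to the threshold, and with any further library removed 3 of the 9 were called.

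In MDA-MB-231, bortezomib with TM raised RAD51AP1 and lowered BRCA1, BRCA2, PALB2 and FANCD2. RAD51AP1 went from 13.4, 8.51 and 15.2 CPM in vehicle to 38.9, 34 and 46.8 CPM, with no overlap, a rise of 1.69 ± 0.24 on the log2 scale (SE; 3.22-fold, adjusted p = 9.76e-05). XRCC2, which also acts at strand invasion, overlapped its vehicle libraries, at 6.69, 6.55 and 8.56 CPM against 8.75, 8.23 and 10.7, and did not pass the test (-0.35 ± 0.24, adjusted p = 0.259). BRCA1 went from 10.5, 7.51 and 13.7 CPM to 3.92, 5.82 and 5.93, a fall of 1.02 ± 0.27 (2.02-fold, adjusted p = 0.00748). Its partner BARD1 read 9.02, 5.45 and 7.69 CPM in vehicle and 4.85, 4.43 and 9.86 with treatment (-0.21 ± 0.32, adjusted p = 0.613), the third treated library lying above all vehicle ones.

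Both mediators fell. PALB2 went from 4.47, 2.58 and 5.07 CPM to 0.933, 1.61 and 2.36 (-1.30 ± 0.38 on the log2 scale, adjusted p = 0.0124), and BRCA2 from 5.94, 4.63 and 5.68 CPM to 1.14, 1.88 and 3.63 (-1.29 ± 0.41, adjusted p = 0.0214). Treated and vehicle libraries did not overlap for either gene, although the treated BRCA2 values spread over 50 to 163 counts. The Fanconi heterodimer divided: FANCD2 fell from 35.7, 37.7 and 45.1 CPM to 13, 15.6 and 22.8 (-1.21 ± 0.21, adjusted p = 0.000529), while FANCI read 46, 34.1 and 52.3 CPM in vehicle and 32.4, 39.6 and 69.4 with treatment (0.10 ± 0.27, adjusted p = 0.793). The helicase gene BLM was at 8.82, 6.97 and 9.3 CPM in vehicle and 5.92, 5.39 and 16.6 with treatment (0.16 ± 0.38, adjusted p = 0.76). In BARD1, FANCI and BLM the third treated library was the highest of all vehicle and bortezomib+TM libraries and the other treated libraries were lower. Thus 1 of the 9 genes rose and 4 fell, where 51.7% of 16498 genes were called, 24.1% as higher and 27.6% as lower. Every treated library lay above every vehicle one for 1 of the 9 (26.3% of all genes) and below for 4 (32.1%). Every alternative tool and scaling gave 5 called genes, but leaving out single libraries ended some calls: without vehicle replicate 3, BRCA2 had an adjusted p of 0.0523 and PALB2 of 0.0508, and BRCA2 also missed without vehicle replicate 1 (0.0601), treated replicate 1 (0.0714) or treated replicate 2 (0.0733).

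Bortezomib with AMD3100 gave the same directions for those 5 genes, with smaller log2 changes; both arms are set against the same vehicle libraries. RAD51AP1 was at 33.4, 32.1 and 21.3 CPM, all above vehicle, a rise of 1.22 ± 0.23 (2.34-fold, adjusted p = 0.00112). FANCD2 was at 25.5, 20.4 and 17.8 CPM (-0.90 ± 0.21, adjusted p = 0.0043) and BRCA1 at 7.32, 6.94 and 4.48 CPM (-0.76 ± 0.27, adjusted p = 0.0352), all below vehicle. BRCA2 at 4.32, 2.77 and 1.51 CPM (-0.92 ± 0.41, adjusted p = 0.0859) and PALB2 at 1.84, 3.17 and 1.64 CPM (-0.86 ± 0.37, adjusted p = 0.0759) did not pass; the first did not overlap vehicle and the second did. BARD1, XRCC2, FANCI and BLM did not pass either, with FANCI at 72, 62.6 and 42.5 CPM (0.42 ± 0.27). So 1 of the 9 rose and 2 fell (3 with no overlap, against 31.1% of all genes), where 46.5% of all genes were called, 22.3% as higher and 24.2% as lower. The BRCA1 call was lost without vehicle replicate 1 (adjusted p = 0.0792), vehicle replicate 3 (0.158), treated replicate 2 (0.0601) or treated replicate 3 (0.122), and DESeq2 called BRCA2 (adjusted p = 0.0376) and PALB2 (0.0427) as well. BRCA2 was also called without bortezomib+TM replicate 3 (0.0272), as was PALB2 (0.0394), and without treated replicate 1 BRCA2 was (0.034). PALB2 was called without vehicle replicate 2 (0.0381) or treated replicate 2 (0.0369).

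The MDA-MB-231 arms were not separated by the test in any of the 9 genes. Bortezomib with AMD3100 minus bortezomib with TM was -0.46 ± 0.23 on the log2 scale for RAD51AP1 (adjusted p = 0.586). It was between -0.27 ± 0.38 (BLM) and 0.44 ± 0.38 (PALB2) for the rest. RAD51AP1 was the only 1 of the 9 whose arms did not overlap. Its AMD3100 libraries were all lower, as in 6.56% of all genes, and 13.4% of all genes did not overlap in either direction. By edgeR 0% of all 16498 genes were called, with 1464 at an unadjusted p under 0.05 and 0 of the 9 among them; DESeq2 called 70 and none of the 9. Without bortezomib+TM replicate 3, 183 of all genes were called, and 0 of the 9. With standard errors of 0.21 to 0.42, differences of a few times that size could go uncalled. On counts simulated from the spread of this line's vehicle libraries, 40% of genes changed 1.5-fold were recovered for bortezomib+TM against vehicle. The comparison between the arms was not simulated.

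**Figure D2:**
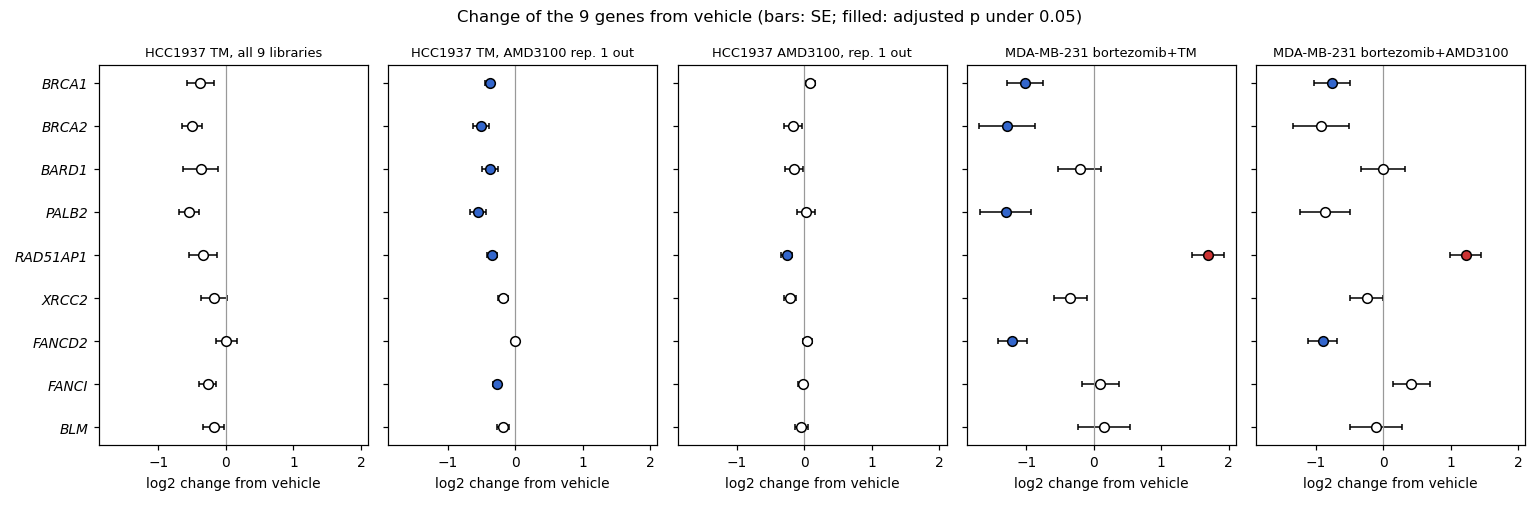
Log2 change from vehicle of each of the 9 genes (horizontal axis; points, edgeR estimates; bars, ± SE) in HCC1937-labelled cells with TM, in both fits, or AMD3100 without replicate 1, and in both MDA-MB-231 arms. Filled points passed an adjusted p of 0.05; the HCC1937-labelled TM points lie at nearly the same place in both fits with shorter bars in the second, and RAD51AP1 is the only red, risen, point in MDA-MB-231.

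Changes in MDA-MB-231 varied with gene length over all genes, and in part over the 9. The 4 genes that fell are 7498 (PALB2), 11855 (FANCD2), 14160 (BRCA1) and 14435 bases (BRCA2), and RAD51AP1, which rose, is 2557. FANCI, with the largest deposited length of the 9 (17853 bases), did not fall (0.10 and 0.42 on the log2 scale in the arms). BARD1 (7572) and BLM (7876), about as long as PALB2 by that value, were not called. These lengths are the values deposited with the counts and need not be those of the expressed transcripts. Where FANCI stands against the trend is therefore uncertain. Over all tested genes the median log2 change with bortezomib and TM was 0.09 in the 4884 genes up to 3000 bases and -0.36 in the 2454 over 10000 bases; with bortezomib and AMD3100 it was -0.0013 and -0.15. By library, genes over 10000 bases stood at -0.51, -0.47 and -0.12 from the vehicle mean with bortezomib and TM, at -0.06, -0.10 and -0.34 with bortezomib and AMD3100, and at 0.02, -0.11 and 0.09 in the vehicle libraries themselves. The levels of 4 of the 9 genes (BRCA1, BRCA2, FANCD2 and FANCI) followed the order of these values in both treated arms. The other 5 followed it in 1 arm only: PALB2 with bortezomib and TM, and BARD1, RAD51AP1, XRCC2 and BLM with bortezomib and AMD3100.

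With the length trend removed from each library, a setting added after the data were seen, the calls in the bortezomib and TM arm were the same 5 genes with smaller falls. RAD51AP1 rose by 1.68 on the log2 scale (adjusted p = 9.38e-05), FANCD2 fell by 0.88 (adjusted p = 0.000625), BRCA1 by 0.63 (adjusted p = 0.0311), BRCA2 by 0.95 (adjusted p = 0.0335) and PALB2 by 1.1 (adjusted p = 0.0152). The fall of BRCA1, 1.02 before, thus moved by over 1.5 times. In the bortezomib and AMD3100 arm RAD51AP1 (1.26), FANCD2 (-0.74) and BRCA1 (-0.58, adjusted p = 0.0472) were called as before, and FANCI was called higher in addition (0.61, adjusted p = 0.0185). The setting removes any length-dependent change, technical or biological, and which of these the trend is was not tested.

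**Figure D3:**
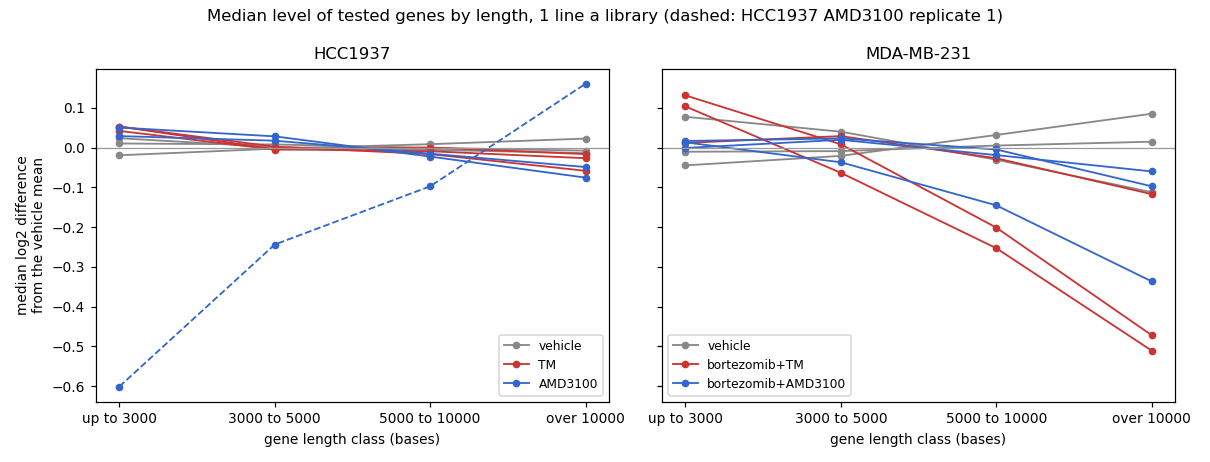
Median log2 difference of the tested genes from the vehicle mean (vertical axis) in 4 classes of gene length in bases (horizontal axis), 1 line for each library, by treatment. In MDA-MB-231 the bortezomib+TM replicates 1 and 2 fall to -0.51 and -0.47 in genes over 10000 bases; in HCC1937-labelled libraries all but the dashed AMD3100 replicate 1 stay near 0.

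Other genes of the pathway were called in both directions in MDA-MB-231, and the counts are read against the 24.1% of all genes called higher and 27.6% called lower with bortezomib and TM. Of 7 end resection genes 0 were called in either direction with bortezomib and TM (EXO1 at 0.17 ± 0.23 and RBBP8 at -0.06 ± 0.35 on the log2 scale). Of the 5 genes of the BRCA1-A complex, which holds BRCA1 at ubiquitinated chromatin, BABAM1 rose by 1.12 ± 0.12 and 3 fell, among them BRCC3 (-1.09 ± 0.32) and BABAM2 (-0.93 ± 0.16). Of 20 other Fanconi genes 9 rose and 8 fell; FANCG of the core complex rose by 1.36 ± 0.13, and FAAP100 (-1.71 ± 0.17) and the nuclease scaffold gene SLX4 (-1.83 ± 0.20) fell. Of 9 dissolution and resolution genes 1 rose (TOP3A, 0.70 ± 0.11) and 4 fell, including RMI2, a subunit of the BLM complex (-1.79 ± 0.16). End joining genes were 4 risen and 2 fallen of 14, with XRCC6 at 0.64 ± 0.08 and PRKDC at -1.73 ± 0.25, and checkpoint genes 2 and 4 of 10, with ATRIP at -1.17 ± 0.13 and CHEK2 at -1.02 ± 0.19. The median log2 change was -0.35 over the 9 genes and -0.09 over all genes tested.

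With bortezomib and AMD3100, where 22.3% of all genes were called higher and 24.2% lower, the counts were, for end resection, 0 risen and 0 fallen, BRCA1-A complex 1 and 2, other Fanconi genes 8 and 9, dissolution and resolution 1 and 3, end joining 4 and 1, checkpoint 4 and 3. FANCF of the core complex fell, with a log2 change of -2.73 ± 0.28.

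Proliferation genes divided in both arms. Of 16 S phase genes 9 rose with bortezomib and TM and 1 fell (RRM2 1.46 ± 0.08, MCM7 1.29 ± 0.11 and the licensing factor CDT1 1.61 ± 0.14 on the log2 scale), while of 12 mitosis genes 0 rose and 6 fell (AURKA -1.37 ± 0.13, PLK1 -1.32 ± 0.14 and CCNB1 -0.70 ± 0.08). The summed S phase level was 3465 to 3738 CPM in vehicle, 6461 to 6840 CPM with bortezomib and TM and 6210 to 6555 CPM with bortezomib and AMD3100; the summed mitosis level was 1315 to 1376, 729 to 875 and 821 to 896 CPM. RAD51AP1 went the way of the S phase genes and BRCA1, BRCA2, PALB2 and FANCD2 the way of the mitosis genes. Their part in the changes of the recombination genes was not tested.

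In the HCC1937-labelled cells with TM, and without AMD3100 replicate 1, the lists are read against 19.4% of all genes called higher and 21.4% lower. Other Fanconi genes were 3 risen and 11 fallen of 20, with CENPX (-0.67 ± 0.05) and FANCL, the core complex ubiquitin ligase (-0.70 ± 0.08), among those that fell. The BRCA1-A complex was 0 and 3 of 5 (BRCC3 -0.74 ± 0.07, BABAM2 -0.59 ± 0.06), checkpoint genes 1 and 5 of 10 (ATR -0.73 ± 0.07), end joining genes 3 and 7 of 14 (PRKDC -0.79 ± 0.04), dissolution and resolution 3 and 3 of 9 and end resection 0 and 1 of 7. With that library kept, the same lists gave 2, 2, 1, 1, 0 and 0 fallen genes in that order. ATRIP (-0.36 ± 0.07 here), CHEK2 (-0.30 ± 0.06), BRCC3, BABAM2 and PRKDC were among the genes called lower with TM in these cells and with bortezomib and TM in MDA-MB-231.

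**Figure D4:**
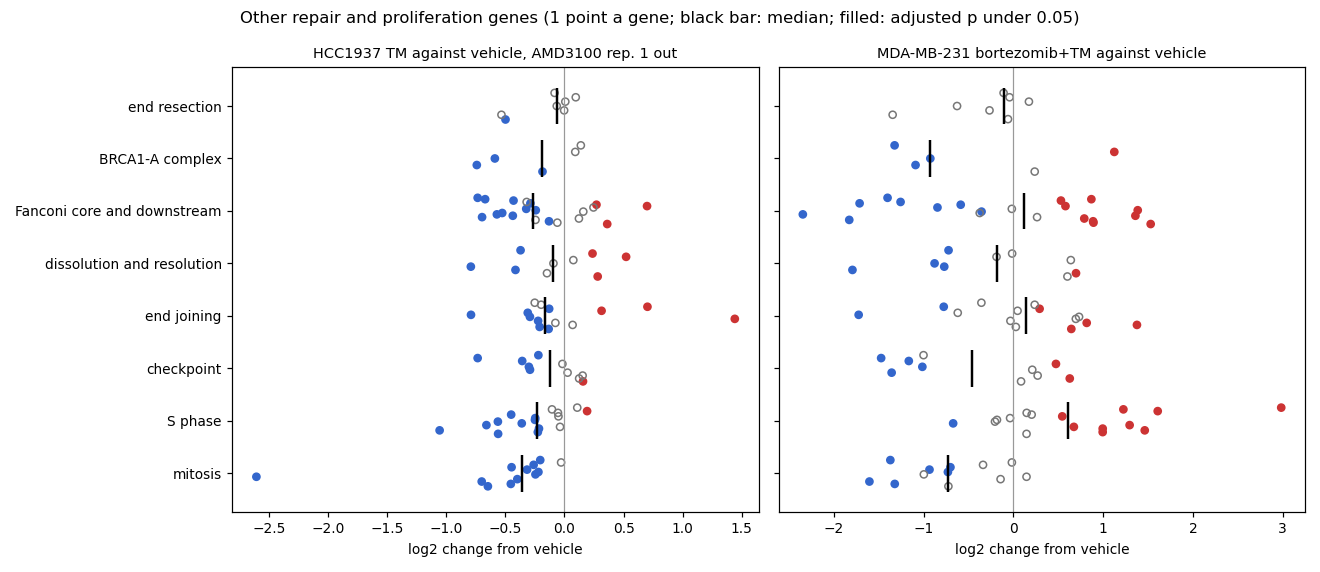
Log2 change from vehicle of each gene in 6 lists of the repair pathway and 2 proliferation lists (rows), in HCC1937-labelled cells with TM without AMD3100 replicate 1 and in MDA-MB-231 with bortezomib and TM. Each point is a gene, filled where the adjusted p was under 0.05, and the black bar is the list's median; in MDA-MB-231 the S phase median is 0.61 and the mitosis median -0.73, and in HCC1937-labelled cells both are below 0.

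The response of 2 of the 9 genes differed between the lines when the difference itself was tested. The change with bortezomib and TM in MDA-MB-231 minus the change with TM alone in HCC1937-labelled cells was 2.10 ± 0.25 on the log2 scale for RAD51AP1 (adjusted p = 1.03e-05) and -1.15 ± 0.22 for FANCD2 (adjusted p = 0.00062), where 35.3% of 20750 genes were called, 18% as higher and 17.3% as lower. For BRCA1 (-0.57 ± 0.27, adjusted p = 0.115), BRCA2 (-0.72 ± 0.37, adjusted p = 0.15) and PALB2 (-0.69 ± 0.38, adjusted p = 0.175) it did not pass, although all 3 had a lower estimate with treatment in both lines. Without MDA-MB-231 vehicle replicate 2, BRCA1 (-0.77, adjusted p = 0.0131) and PALB2 (-0.93, adjusted p = 0.0392) passed; without bortezomib+TM replicate 3, BRCA2 (-1.25, adjusted p = 0.000954) and PALB2 (-1.03, adjusted p = 0.0249) did. FANCI passed with the length trend removed (0.69, adjusted p = 0.0183). In the AMD3100 arms RAD51AP1 (1.21 ± 0.37, adjusted p = 0.0436) and FANCD2 (-1.12 ± 0.26, adjusted p = 0.0108) were called, where 16.6% of 20280 genes were, 8.35% as higher and 8.21% as lower. Without HCC1937-labelled AMD3100 replicate 1 they were 1.52 ± 0.29 and -0.90 ± 0.19, and BRCA1 was called too (-0.81 ± 0.30, adjusted p = 0.0496), where 30.5% of all genes were, 14.8% as higher and 15.6% as lower. The RAD51AP1 call in the AMD3100 arms was lost, with adjusted p of 0.0643 to 0.103, without any 1 of 9 libraries, and at 0.205 with the length trend removed; in the TM arms it held in every alternative run. Bortezomib was given in 1 line only, so line and bortezomib cannot be told apart.

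In 4T1 tumours no gene passed the test, and the 9 orthologs were close to vehicle in both arms. Brca1 was at 47.7, 39.6 and 41.9 CPM in vehicle tumours, 28.8, 39.5 and 43.5 CPM with bortezomib and TM, and 32.4, 49.6 and 33.5 CPM with bortezomib and AMD3100. The groups overlapped, and the lowest and highest of the 9 tumours were both treated. Rad51ap1, the gene that rose in MDA-MB-231, was at 11.1, 13.2 and 13 CPM in vehicle, 10.9, 14.2 and 14.1 CPM with bortezomib and TM (0.08 ± 0.17 on the log2 scale) and 13.2, 14.5 and 11.9 CPM with bortezomib and AMD3100 (0.09 ± 0.17). Fancd2 was at 22.6, 15.4 and 17.8 CPM, then 18.6, 13.2 and 19.1, then 16.8, 26.3 and 16.4. Brca2 was at 27, 21.9 and 21.2 CPM in vehicle, 21.9, 20.7 and 25.2 with bortezomib and TM, and 25.5, 35.2 and 26.1 with bortezomib and AMD3100. Palb2 ran from 7.81 to 12.4 CPM over the 9 tumours, Bard1 from 31.1 to 47, Xrcc2 from 9.1 to 16, Fanci from 8.43 to 13.5 and Blm from 18.7 to 34.7. Changes from vehicle lay between -0.21 ± 0.21 (Brca1) and 0.22 ± 0.21 (Xrcc2) with bortezomib and TM, and between -0.16 ± 0.21 (Brca1) and 0.35 ± 0.21 (Blm) with bortezomib and AMD3100.

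By edgeR 0% of 15846 genes were called in each of the 3 tumour comparisons, and 0 of the 9 had an unadjusted p under 0.05, against 688 of all genes with bortezomib and TM, 1144 with bortezomib and AMD3100, and 454 between the arms. DESeq2 called 3, 17 and 6 genes and 0 of the 9. Between the arms Brca2 and Palb2 were higher with AMD3100 in every tumour than with TM (0.35 ± 0.17 and 0.23 ± 0.19), as were 3.68% of all genes. On counts simulated from the means and spread of the vehicle tumours, 77% of genes changed 2-fold were recovered and 22% of those changed 1.5-fold. A change of the size of the HCC1937-labelled TM differences was thus largely not detectable here. The spread of the treated tumours was not in the simulation, so these shares may be too high. In tumour RNA, fewer cells of a type and less RNA per cell cannot be told apart. The summed leukocyte markers ran from 652 to 864 CPM in vehicle, 529 to 1169 with bortezomib and TM and 723 to 1364 with bortezomib and AMD3100, all 9 markers being detected, and epithelial markers (7 in the list) from 1474 to 2400 CPM in vehicle, 1075 to 1925 with bortezomib and TM and 975 to 1255 with bortezomib and AMD3100, the last group not overlapping vehicle; fibroblast markers (4 of 4 detected) ran from 2053 to 3567, 1475 to 4599 and 2682 to 3385 CPM. The mitosis sum, 1704 to 1951 CPM in vehicle, was 1359 to 1990 and 1441 to 2455 CPM in the treated groups, and the part of these cells in the levels of the 9 genes was not tested.

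**Figure D5:**
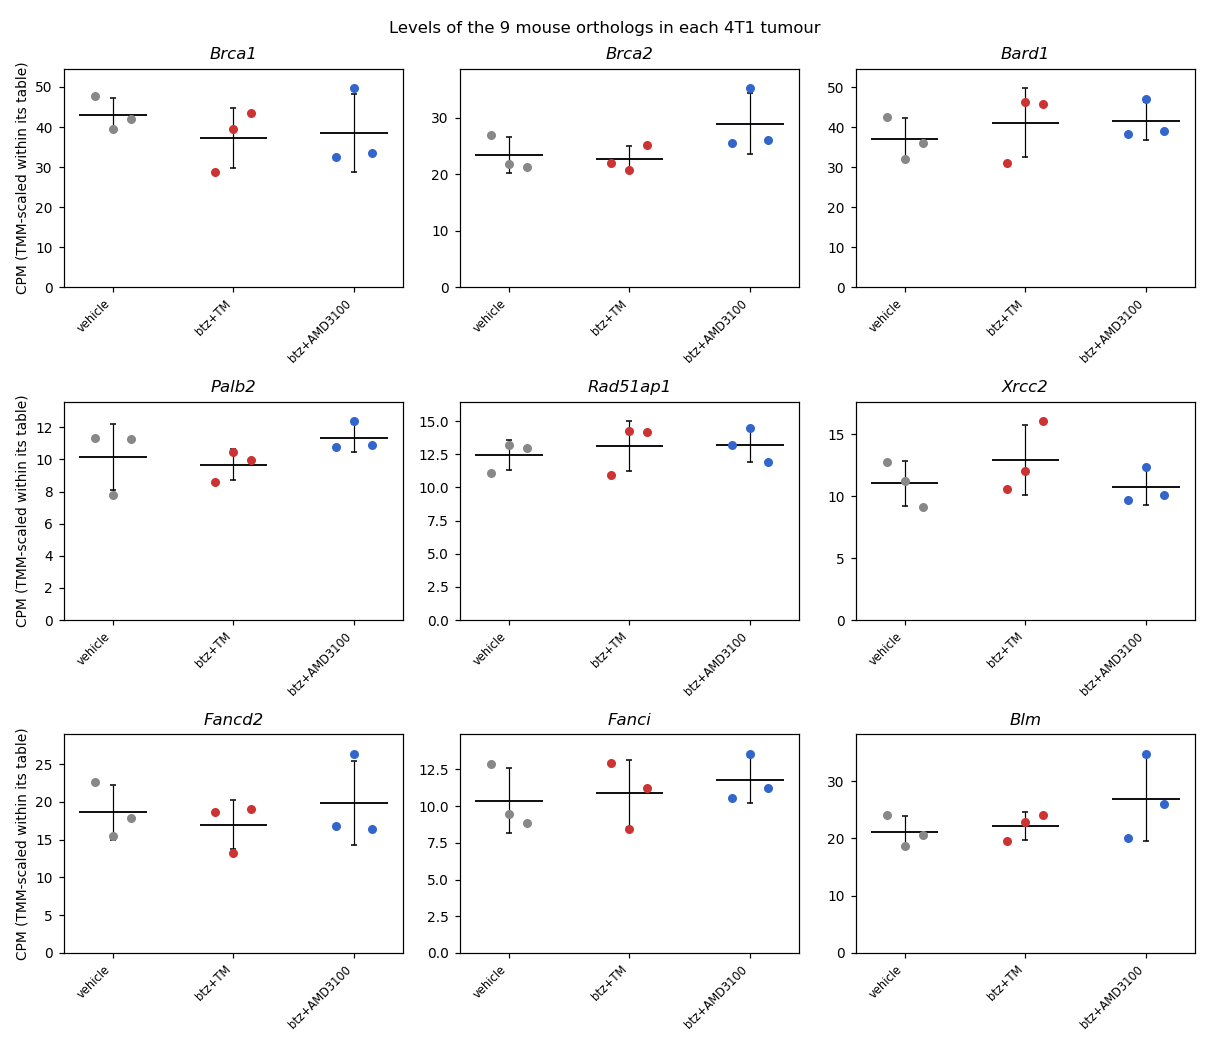
Level of each of the 9 mouse orthologs in every 4T1 tumour. Vertical axes give scaled CPM from 0, horizontal positions the 3 groups (btz, bortezomib), points single tumours, bars mean ± SD of 3; Brca1 treated tumours run from 28.8 to 49.6 CPM around vehicle tumours of 39.6 to 47.7.

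The genes nearest to BRCA1 in pattern, by Pearson correlation of log2 CPM centred on each table over the 17 human libraries without AMD3100 replicate 1, were RAB29 (r = 0.96), LEPROT (0.95), SEPTIN10 (0.95), CFAP97 (0.95) and GK5 (0.94), among 14260 genes. With replicate 1 kept the 5 were MIOS, PPA1, SEPTIN10, HPF1 and CFAP97, so 2 names were shared. Of the other 8 genes PALB2 was nearest to BRCA1 (0.92), above 99.7% of all genes, then BRCA2 (0.87), FANCD2 (0.85) and XRCC2 (0.75). BARD1, the binding partner, had 0.59, BLM 0.43 and FANCI 0.37, and RAD51AP1 alone had a negative value, -0.47. In the 9 tumours the nearest to Brca1 were Lap3, Dyrk3, Apbb2, Map2k3os and G3bp1 (0.95 to 0.96 each), and Bard1 was the nearest of the 8 at 0.64. Points share their line, treatment and, in MDA-MB-231, the length trend, and the values are a description.

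Gene positions limit some counts. BRCA1 lies at chr17:43044295-43170245 on the minus strand of GRCh38 and overlaps the lncRNA genes NBR2 (opposite strand, 4209 counts over the HCC1937-labelled libraries against 15238 for BRCA1) and AC060780.1 (same strand, 6827 counts). FANCI, at chr15:89243949-89317261 on the plus strand, overlaps POLG on the other strand, which had 64255 counts over the MDA-MB-231 libraries against 20010 for FANCI. Strand use in the counting is not given in the sources used here, so reads of such pairs cannot be told apart. FANCD2, at chr3:10026414-10101930, has a near-identical pseudogene, FANCD2P2, with 22 and 9 counts in the human tables against 23150 and 11023. PALB2 overlaps an antisense gene with 25 and 7 counts, and RAD51AP1, at chr12:4538798-4560048, overlaps no annotated gene.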

How the data were processed

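RNA was measured in 27 libraries as gene-level read counts. The authors deposited 1 count table for each dataset: per the labels, poly(A) libraries read as 150-base pairs, and per the submitters' processing notes, featureCounts 2.0.1, MultiQC 1.11 and the builds GRCh38 and GRCm38. Aligner, annotation and strand setting are not given in the sources used here. Of gene counts from 1 to 20, 56.9% to 66.1% were even in each library, and whether mates were counted singly is not stated. Samples were grouped by title. The 9 genes and all lists were chosen with earlier results of these data known.

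Human identifiers were matched to symbols for 61481 of 78932 features. Counts went through filterByExpr, TMM scaling and edgeR 4.0.16 (quasi-likelihood, R 4.3.3), fitted over each dataset's 9 libraries, or over 6 or 12 for comparisons between lines, with Benjamini-Hochberg adjustment over all tested genes and a threshold of 0.05. SEs were derived from the F statistic (absolute log2 change over root F); CPM is TMM-scaled within each table, or over both human tables' vehicle libraries where said, with a prior count of 2 where logged. All 9 genes are given; from each list the text names among the 3 called genes of smallest p, or, with fewer than 2 called, the 2 of highest CPM; markers and overlapping genes are named beside results. Others named are the 5 genes nearest BRCA1. The procedure was tested on simulated data. Alternatives were DESeq2 1.42.0, limma-voom 3.58.1, its scaling, no filter, groups alone, a replicate block, each library out, and, added after seeing the data, a second library out and a lowess trend of length removed. FANCI's promoter was not analysed here, nor was any protein sequence. Totals per library were 35981504 to 50735374 counts. Counts were simulated from the means and spread of each dataset's vehicle libraries. On them 95% of genes changed 1.5-fold were recovered in HCC1937-labelled TM against vehicle and 40% in MDA-MB-231 bortezomib+TM against vehicle. The spread of the outlying AMD3100 replicate 1 was not in that simulation, so the 95% does not describe the fit of all 9 HCC1937-labelled libraries. In that fit PALB2 (1.46-fold lower with TM) and BRCA2 (1.42-fold lower) were not called. A few other genes, and 1 list of the pathway, are not reported here.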

Additional observations from a re-analysis of the deposited data

How the results depend on the processing

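In the HCC1937-labelled libraries the call counts depended on AMD3100 replicate 1. In MDA-MB-231 the treated BRCA2 libraries held 50 to 163 counts, and what limits its precision was not tested. Of the 9 genes called with TM against vehicle there were 0; DESeq2 gave 2 (2668 of all genes), the compared groups alone 6 (8336), and leaving out libraries 0 to 8 (406 to 8437). For AMD3100 against vehicle all genes called were 0, against 161 without the filter, 39 by DESeq2, 3 with the length trend removed and 0 to 1661 with libraries left out (0 to 1 of the 9). For AMD3100 against TM, 1 of the 9 became 2 by DESeq2 (3205 of all genes), 0 with the groups alone (252), 2 with the length trend removed and 0 to 4 with libraries left out (373 to 7662). RAD51AP1 with AMD3100 against vehicle, 0.02 on the log2 scale, was -0.0069 without the filter and -0.028 by limma-voom. With single libraries out it ran from -0.27 to 0.14, BARD1 from -0.15 to 0.36, PALB2 from -0.071 to 0.12, FANCI from -0.03 to 0.15 and BLM from -0.049 to 0.20; FANCD2 with TM ran from -0.041 to 0.031.

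Deviations of same-numbered replicates had correlations of -0.037 to 0.037 in the HCC1937-labelled, -0.32 to 0.29 in the MDA-MB-231 and -0.47 to 0.60 in the 4T1 libraries. Those of differently numbered ones ranged wider, at -0.048 to 0.052, -0.35 to 0.31 and -0.63 to 0.66 in that order. The numbers were therefore not taken as pairs. With a replicate block, TM against vehicle gave 718 of all genes, AMD3100 against TM 725 and 0 of the 9, and RAD51AP1 with AMD3100 -0.0030. With the block and AMD3100 replicate 1 out, TM gave 6 of the 9 and 8081 genes, AMD3100 against vehicle 1 and 1030, and AMD3100 against TM 3 and 6802. In MDA-MB-231 with bortezomib and AMD3100 the block gave 2 of the 9, with BRCA1 lost (adjusted p = 0.0765).

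In MDA-MB-231, bortezomib and TM called 3 to 5 of the 9 with single libraries out, while FANCI ran from -0.27 to 0.31 and BLM from -0.54 to 0.43 (limma-voom -0.018). Bortezomib and AMD3100 called 3, against 6 without the filter, 5 by DESeq2, 5 with the groups alone and 2 to 5 with single libraries out. There BARD1 was -0.0089 by limma-voom and -0.015 with the groups alone, and ran from -0.18 to 0.22, XRCC2 from -0.41 to 0.013 and BLM from -0.28 to 0.12. Between the arms all genes called were 177 without the filter, 70 by DESeq2 and 0 to 183 with single libraries out; BRCA2 ran from -0.049 to 0.92, XRCC2 from -0.073 to 0.35 and BLM from -0.54 to 0.44.

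In 4T1, DESeq2 called 3, 17 and 6 of all genes and the groups alone 1 for bortezomib and AMD3100; single tumours out gave 0 to 1 for each arm against vehicle. With bortezomib and TM, Brca2 ran from -0.13 to 0.071, Palb2 from -0.23 to 0.018, Fancd2 from -0.25 to 0.030, Fanci from -0.072 to 0.25 and Blm from -0.013 to 0.18. With bortezomib and AMD3100, Xrcc2 ran from -0.17 to 0.074 and Fancd2 from -0.17 to 0.26. Between the arms Brca1 ran from -0.19 to 0.17, Bard1 from -0.17 to 0.11, Rad51ap1 from -0.12 to 0.077 (-0.00075 with the groups alone), Fancd2 from -0.040 to 0.35 and Fanci from -0.041 to 0.24.

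Between vehicle lines FANCD2 was -0.015 under DESeq2's scaling and by DESeq2, -0.13 with the length trend removed and -0.058 to 0.089 with single libraries out. The difference of TM arms called 2 to 4 of the 9 (BARD1 -0.19 to 0.43, XRCC2 -0.19 to 0.028, BLM -0.28 to 0.66), and that of AMD3100 arms 1 to 3 and 2224 to 6445 of all genes (BARD1 -0.36 to 0.18, BLM -0.35 to 0.0085). These genes' directions were not called. The cause of these changes was not tested.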
